A study of Homo sapiens with 4 samples.

Results

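The 4 RNA sequencing libraries of the series each carry a number, 1 or 2, besides a group, and the libraries numbered 2 are compared here with those numbered 1. All 4 of 4 libraries enter, 2 with each number. All came from KMS11, an established t(4;14) myeloma line (myeloma is a malignancy of antibody-secreting plasma cells). Control libraries 1 and 2 came from cells labelled control, and knockdown libraries 1 and 2 from cells given the shRNA named shM2 and labelled NSD2 Knockdown. In every library the cells had been infected with lentivirus in 10 µg/mL polybrene, had their medium changed, and were collected 72 h after that change, 96 h from infection, from medium with 10% serum. A TruSeq kit was used on 1 µg of total RNA per library. Nothing in the labels says that an equal number marks a pair, a culture, a day or a batch, or that the libraries of a group are separate cultures. What the p-values measure is therefore the spread among these libraries alone, and that spread may be technical.

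Several of the gene programmes described here have a known master regulator. The transcription factor ATF4 turns on amino acid transporters, amino acid synthesis and tRNA charging genes when amino acids run short or the ER is strained, SREBP2 turns on cholesterol synthesis when membrane sterol is low, and HIF1 turns on glycolysis and matrix hydroxylase genes when oxygen is low. HSF1 drives the chaperones of the heat shock response, E2F factors the genes of S phase, and serum or stress the immediate early genes. Plasma cells and myeloma cells secrete large amounts of protein and are known for high ER and amino acid demand.

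Libraries held 46728940 to 55059566 counted fragments and 25842 to 26783 detected genes. Mitochondrial genes took 5.82% to 5.89% of the fragments in 3 libraries and 6.81% in knockdown library 2. Summed plasma cell markers lay between 3200 and 3583 CPM (counted fragments per 1000000 of the TMM-scaled library total), with all 8 markers detected, but the plasma cell surface gene CD38 was at 0.0369 to 1.54 CPM. Of the 5 myeloid markers, 5 were below 1 CPM in every library, and summed markers of B cells, of T and NK cells, of fibroblasts and of erythroid cells ranged from 0.124 to 6.41 CPM. Markers of epithelial and kidney lines summed to 66.4 and 53.9 CPM in the controls and to 34.4 and 32.9 CPM in the pair labelled knockdown, most of it EPCAM. Plasma cell marker sums were higher in both number 2 libraries than in both number 1 libraries, but not every marker was. SDC1 and CD38 were lower in number 2 within each group, and MZB1 was lower in number 2 in the controls.

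NSD2, the histone methyltransferase gene that the translocation activates and that the shRNA targets, was checked first (ENSG00000109685, chromosome 4, 1873151 to 1983934, GRCh37). It stood at 1121 CPM in control library 1, 1471 CPM in control library 2, 919 CPM in knockdown library 1 and 1156 CPM in knockdown library 2. Both number 2 libraries thus lay above both number 1 libraries, and knockdown library 2 lay above control library 1. With the group held fixed, NSD2 was 1.28-fold higher in number 2 (log2 difference 0.36, SE 0.09, 95% interval 0.17 to 0.56, edgeR adjusted p = 0.0335), and the call was lost with terms for GC content and gene length (adjusted p = 0.0533). In the same fit the difference between the libraries labelled knockdown and the controls was -0.32 on the log2 scale, against 0.36 by number. The groups of the study are called by their labels throughout, and where a pair has 2 values, library 1 comes first.

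The other genes of the study showed no call by number. PTP4A3, which encodes the phosphatase PRL3, stood at 148 CPM in control library 1 and 177 CPM in control library 2, with 89.1 CPM in knockdown library 1 and 107 CPM in knockdown library 2 (log2 difference 0.26, 95% interval 0.08 to 0.43, adjusted p = 0.0995). CCND1, the gene of cyclin D1, was at 33.2 and 44.3 CPM in the controls and at 27.9 and 26.0 CPM in the pair labelled knockdown, with log2 ratios of opposite sign, 0.41 and -0.10 (adjusted p = 0.493). The receptor gene FGFR3, which the translocation also affects, was at 3948 and 3969 CPM in the controls and at 3411 and 3383 CPM in the pair labelled knockdown (95% interval of the log2 difference by number -0.21 to 0.21). SMARCA2, an ATPase gene of SWI/SNF remodelling complexes, ranged from 199 to 218 CPM (95% interval -0.14 to 0.23). The plot of these 5 genes by library shows that the number set apart NSD2 but not FGFR3 or SMARCA2.

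**Figure D1:**
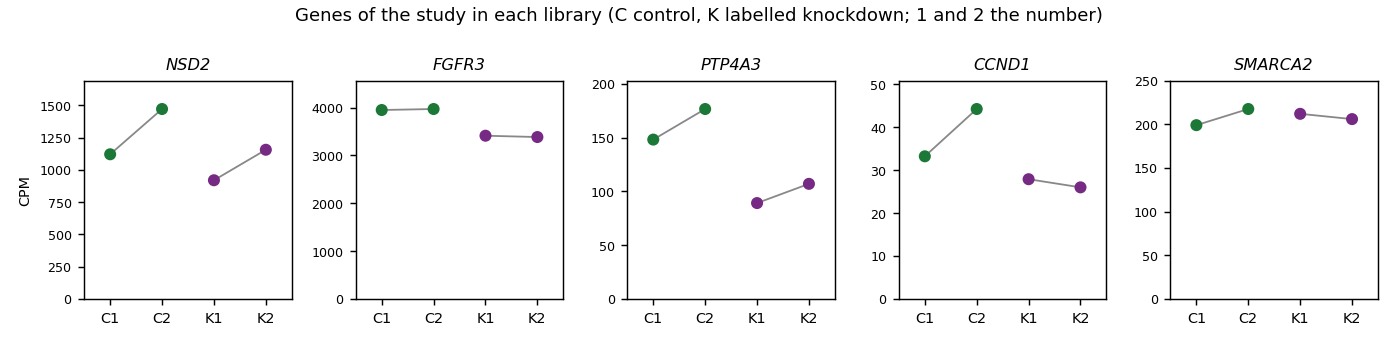
Level in CPM on TMM-scaled libraries (vertical axis, from 0) of NSD2, FGFR3, PTP4A3, CCND1 and SMARCA2 in control (C, green) and labelled knockdown (K, purple) libraries numbered 1 and 2; each point is 1 library and a line joins the libraries of a group. NSD2 is higher in number 2 within each group, at 1471 against 1121 and at 1156 against 919 CPM.

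Over all genes tested, 340 were higher and 268 lower in number 2 among 17172, which is 1.98% and 1.56% of them and 3.54% together. Genes were tested with the edgeR quasi-likelihood method with the group as a blocking term, and an adjusted p below 0.05 over all genes tested was the threshold. Most differences were small. The median fold was 1.44 among the higher and 1.35 among the lower genes, 139 and 64 of them passed 1.5-fold, and 47 and 17 passed 2-fold. Protein-coding genes made up 288 of the higher and 250 of the lower calls. Of the 608 calls, 605 had the same direction in both groups, which the test itself favours, and 3 had a log2 ratio just below 0 in the pair labelled knockdown.

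These calls rest on few libraries. The fit has 1 residual degree of freedom, so its estimate of spread comes mostly from other genes, and DESeq2 with the same terms made 86 higher and 80 lower calls, 165 of them among the 608. Without the group as a term edgeR made 0 calls, with 543 of 17172 genes at an unadjusted p below 0.05. That fit leaves the difference between the groups in its spread, and 3319 genes differed by group in the main fit. Its counts therefore cannot tell whether the numbers differ, and the share of 0.05 is no yardstick for them.

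Within each group the number difference is a ratio of 1 library to 1 library and has no test. Over the 17172 genes, 29.7% were higher in number 2 in both groups, 30.0% were lower in both and 40.3% had opposite signs. Across genes the control ratio and the knockdown ratio correlated with r = 0.236 (rank correlation 0.255), and with r = 0.430 over the 10539 genes with a mean of at least 5 CPM. These are descriptions across genes, which are not independent replicates, and the points share their libraries. The ratio plot shows the calls along the diagonal, with most genes around 0.

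**Figure D2:**
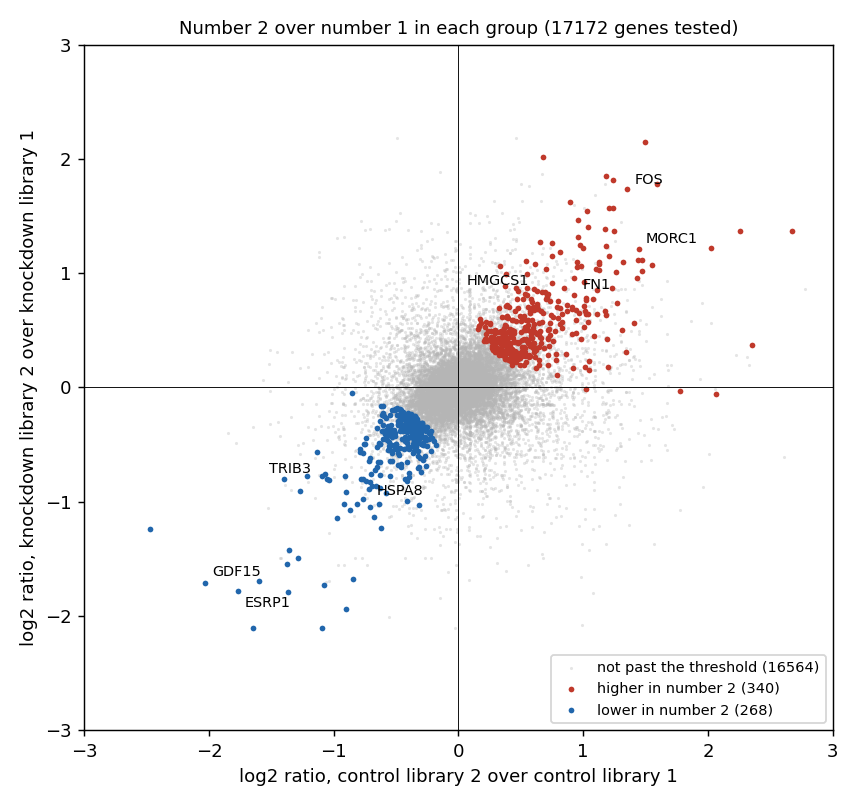
Each point is 1 of 17172 genes, with the log2 ratio of control library 2 over control library 1 on the horizontal axis and that of knockdown library 2 over knockdown library 1 on the vertical axis; red marks the 340 genes higher and blue the 268 lower in number 2. ESRP1 and GDF15 lie low on the diagonal and FOS and MORC1 high on it.

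Of the 42 gene lists examined, the ATF4 and amino acid response held the most calls, and most of its calls were lower in number 2. Of 37 tested members, 17 were lower and 1 higher, against 1.56% and 1.98% of all genes, and the median log2 difference was -0.32, against 0.00 over all genes. Both groups gave the same size of median, -0.32 in the controls and -0.31 in the pair labelled knockdown, and 30 of the 37 were lower in number 2 in both groups. Both number 2 libraries lay below both number 1 libraries for 20 members, where 15.3% of all genes did so. DESeq2 gave 15 lower and 0 higher members. In bulk RNA, fewer cells with a programme and less of its RNA per cell cannot be told apart.

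TRIB3, a pseudokinase gene that is a target of ATF4 and curbs it, had the smallest adjusted p of the list (ENSG00000101255, chromosome 20, 361261 to 378203). It stood at 234 CPM in control library 1 and 113 CPM in control library 2, with 196 CPM in knockdown library 1 and 113 CPM in knockdown library 2. The number 2 libraries were nearly equal and far below both number 1 libraries (1.90-fold lower, log2 difference -0.93, SE 0.09, adjusted p = 1.6e-06). SLC6A9, a glycine transporter gene, was at 152 and 89.4 CPM in the controls and at 83 and 47.6 CPM in the pair labelled knockdown (1.72-fold lower, adjusted p = 7.93e-06). It was lower in number 2 within each group, although control library 2 exceeded knockdown library 1. CEBPB, the gene of a bZIP factor that partners ATF4, was at 121 and 72.5 CPM in the controls and at 93.9 and 69.1 CPM in the pair labelled knockdown (log2 difference -0.59, adjusted p = 0.000336).

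Among the lower members were genes of serine and one-carbon synthesis. PHGDH, the first enzyme gene of serine synthesis, stood at 232 and 163 CPM in the controls and at 161 and 111 CPM in the pair labelled knockdown (log2 difference -0.53, adjusted p = 0.000769). PSAT1, the next enzyme gene of that path, was at 206 and 142 CPM and at 161 and 114 CPM (log2 difference -0.52, adjusted p = 0.000905). Mitochondrial folate enzyme genes SHMT2, MTHFD2 and ALDH1L2 had log2 differences of -0.34, -0.34 and -0.52, all past the threshold. Genes for making other amino acids were lower too, with log2 differences of -0.39 for the proline enzyme gene PYCR1, -0.39 for CBS of transsulfuration, -0.41 for GPT2 of alanine and -0.41 for the asparagine synthetase gene ASNS. ASNS was at 398 and 290 CPM in the controls and at 315 and 246 CPM in the pair labelled knockdown. The glutamine transporter gene SLC1A5, at 1037 and 744 CPM and at 924 and 614 CPM, had -0.53.

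Other members did not pass. ATF4 itself had a log2 difference of -0.17 (adjusted p = 0.392) and DDIT3, the gene of its stress partner CHOP, of -0.26 (adjusted p = 0.172), while CHAC1 and PPP1R15A, a pair of stress targets, had 0.02 and 0.01. The cystine and leucine transporter genes SLC7A11 and SLC7A5 had -0.22 and -0.28 (adjusted p = 0.22 and 0.127). GDF15, a secreted stress factor gene, passed at a log2 difference of -1.98 but on 50 and 10 fragments in the controls and 60 and 19 in those labelled knockdown. The single higher member was VLDLR, a lipoprotein receptor gene, at 4.57 and 6.55 CPM and at 2.81 and 4.27 CPM (adjusted p = 0.0401, and 0.492 with DESeq2). Outside the list EIF4EBP1, a translation repressor gene that ATF4 also targets, was at 104 and 60.3 CPM in the controls and at 88.3 and 60.6 CPM in the pair labelled knockdown (log2 difference -0.67, adjusted p = 8.4e-05). In the list of 23 aminoacyl-tRNA synthetase genes 1 was lower and 0 higher, against 1.56% and 1.98% of all genes. That 1 was WARS (log2 difference -0.53, adjusted p = 0.000987), and the list median was -0.07. Without regard to a call, 18 of the 23 were lower in number 2 in both groups, where 30.0% of all genes were. For 12 of the 23 both number 2 libraries lay below both number 1 libraries, where 15.3% of all genes did so. Among 40 ER folding and unfolded protein response genes, 0 passed in either direction (median -0.02).

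The promoter of ASNS holds the core letters of a C/EBP-ATF response element. The 250 bases before its start hold 1 match to TGATGNAA, searched on both strands, which is printed in capitals (chr7:97872409-97872658, minus strand, RefSeq GRCh38.p14). The counts were made on GRCh37, and no value mixes the builds. Of 27305 RefSeq promoters of this length 3.19% hold the motif, as do 1.47% of the 10666 whose genes were tested, and of the 31 list promoters found there 3 do, while that of TRIB3 does not.
ASNS: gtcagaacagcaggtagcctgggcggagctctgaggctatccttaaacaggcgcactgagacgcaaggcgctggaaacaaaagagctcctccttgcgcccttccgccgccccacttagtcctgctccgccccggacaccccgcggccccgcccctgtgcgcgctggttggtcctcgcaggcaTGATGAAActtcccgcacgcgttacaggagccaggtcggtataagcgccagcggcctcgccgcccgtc
The other list members with a match, ATF3 and CHAC1, did not pass the threshold. A match is a description of letters only.

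In the heat shock list every call was lower in number 2. Of 24 tested members, 5 were lower, against 1.56% of all genes, and 0 higher. The median log2 difference was -0.18 (-0.18 and -0.20 within the groups), and 18 were lower in both groups, where 30.0% of all genes were. Both number 2 libraries lay below both number 1 libraries for 18 members, where 15.3% of all genes did so. HSPA8, the constitutive HSP70 chaperone gene, stood at 1501 CPM in control library 1 and 898 CPM in control library 2, with 1561 CPM in knockdown library 1 and 885 CPM in knockdown library 2 (ENSG00000109971, chromosome 11, 122928197 to 122933938). The numbers do not overlap, and libraries of the same number lie close to each other across the groups (1.72-fold lower in number 2, log2 difference -0.78, SE 0.10, adjusted p = 3.05e-05). SERPINH1, the gene of the collagen chaperone HSP47, was at 32.4 and 20.7 CPM in the controls and at 24.9 and 15.8 CPM in the pair labelled knockdown (log2 difference -0.65, adjusted p = 0.000163). DNAJB1, an HSP40 co-chaperone gene, was at 112 and 87.5 CPM and at 110 and 76.5 CPM (log2 difference -0.44, adjusted p = 0.00478), and HSPH1 and AHSA1 had -0.30 each (adjusted p = 0.0473 and 0.0487).

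Some chaperones did not pass. The inducible genes HSPA1A and HSPA1B had log2 differences of -0.09 and -0.20 (adjusted p = 0.846 and 0.358), HSP90AB1 of 0.00 and HSPB1 of 0.00. HSPA6, another inducible HSP70 gene, went the other way without passing (log2 difference 0.82, adjusted p = 0.0622). With DESeq2, 3 members were lower.

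HSPA8 and SERPINH1 hold the 2 forms of a heat shock element pair in the 250 bases before their start. The head-to-head form is GAANNTTC and the tail-to-tail form TTCNNGAA, each its own reverse complement. Overlapping matches run together in the capitals below (chr11:123062137-123062386, minus strand for HSPA8, and chr11:75562003-75562252, plus strand for SERPINH1, RefSeq GRCh38.p14). The first form is in 5.85% of 27305 promoters, in 4.13% of the 10666 whose genes were tested and in 9 of the 22 found for the list. The second is in 6.72%, in 5.09% and in 5 of 22.
HSPA8: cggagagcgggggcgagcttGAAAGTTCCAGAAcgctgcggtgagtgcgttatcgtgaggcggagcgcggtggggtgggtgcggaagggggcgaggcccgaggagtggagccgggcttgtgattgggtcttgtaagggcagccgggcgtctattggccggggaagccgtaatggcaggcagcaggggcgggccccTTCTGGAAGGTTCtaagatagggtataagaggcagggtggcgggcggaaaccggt
SERPINH1: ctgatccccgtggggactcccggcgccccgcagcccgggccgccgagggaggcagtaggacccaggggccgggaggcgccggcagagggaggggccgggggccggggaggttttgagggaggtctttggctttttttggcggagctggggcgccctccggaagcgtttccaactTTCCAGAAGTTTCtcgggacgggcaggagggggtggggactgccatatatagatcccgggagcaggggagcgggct
HSPA8 has 4 matches and SERPINH1 has 2. The first form also stands before CHORDC1, DNAJA1, DNAJB6, HSPA1A, HSPA1B, HSPA6 and HSPB1, and none of these passed the threshold.

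A few S phase genes passed the threshold as lower in number 2. Of 51 tested members, 5 were lower and 0 higher, against 1.56% and 1.98% of all genes. In both groups 41 members were lower, where 30.0% of all genes were. Both number 2 libraries lay below both number 1 libraries for 29 members, where 15.3% of all genes did so. The list median was -0.18, with -0.13 in the control pair and -0.23 in the pair labelled knockdown. CDT1, which licenses replication origins, stood at 124 and 83.6 CPM in the controls and at 108 and 73.7 CPM in the pair labelled knockdown (log2 difference -0.56, adjusted p = 0.000344). PCNA, the sliding clamp gene of replication, was at 310 and 228 CPM and at 267 and 205 CPM (log2 difference -0.41, adjusted p = 0.00879). Number 2 lay below number 1 without overlap for both genes. CCNE1, DUT and DTL were the other 3, with log2 differences of -0.38, -0.36 and -0.32 (adjusted p = 0.0219, 0.0222 and 0.0415). The helicase genes MCM2 to MCM7 had -0.21 to -0.09 and did not pass. SLBP, which binds histone mRNA, had 0.31 (adjusted p = 0.0504). With DESeq2, 2 members were lower.

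Mitosis genes gave few calls. Of 51 tested members, 2 were lower and 0 higher, close to the 1.56% lower and 3.54% called in either direction among all genes. Lower in both groups without regard to a call were 40 members, where 30.0% of all genes were (median -0.14). For 29 members both number 2 libraries lay below both number 1 libraries, where 15.3% of all genes did so. The factor gene FOXM1, a regulator of that phase, was at 164 and 137 CPM in the controls and at 145 and 111 CPM in the pair labelled knockdown (log2 difference -0.32, adjusted p = 0.0378), and CDCA3 had -0.38 (adjusted p = 0.0337). With DESeq2 the list had 0 calls.

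E2F sites were searched in the S phase list. The 250 bases before the start of CDT1 and of PCNA hold 1 match each to TTTCCCGC, searched on both strands and printed in capitals as its reverse complement (chr16:88803539-88803788, plus strand for CDT1, and chr20:5126623-5126872, minus strand for PCNA, RefSeq GRCh38.p14). The motif is in 1.42% of 27305 promoters, in 2.21% of the 10666 whose genes were tested and in 9 of the 43 found for the list. The related TTTGGCGC is in 0.55%, in 0.85% and in 7 of 43, so that most promoters of the list match neither form.
CDT1: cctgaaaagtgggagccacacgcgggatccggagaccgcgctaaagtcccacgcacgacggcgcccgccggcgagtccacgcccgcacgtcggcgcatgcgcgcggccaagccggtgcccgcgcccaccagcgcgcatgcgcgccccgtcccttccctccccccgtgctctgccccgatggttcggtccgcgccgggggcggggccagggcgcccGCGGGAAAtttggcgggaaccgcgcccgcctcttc
PCNA: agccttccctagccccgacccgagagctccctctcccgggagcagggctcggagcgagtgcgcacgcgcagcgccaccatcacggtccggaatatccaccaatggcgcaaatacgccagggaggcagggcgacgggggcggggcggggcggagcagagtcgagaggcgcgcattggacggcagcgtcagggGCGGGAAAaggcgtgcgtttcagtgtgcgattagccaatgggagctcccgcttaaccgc
Matches are counted whether or not the gene passed.

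MHC class II genes, which present antigen to T cells, were lower in number 2 as well. Of 20 tested members of the class II and B cell list, 6 were lower, against 1.56% of all genes, and 0 higher. All 6 were class II genes, and the list median was -0.27 (-0.28 and -0.26 within the groups). Both number 2 libraries lay below both number 1 libraries for 1 of the 20 members, where 15.3% of all genes did so. HLA-DRB1 stood at 293 and 222 CPM in the controls and at 178 and 132 CPM in the pair labelled knockdown (log2 difference -0.42, adjusted p = 0.00725), so that number 2 was lower within each group while control library 2 exceeded both knockdown libraries. HLA-DQA1, HLA-DRB5, HLA-DPA1, HLA-DPB1 and HLA-DQB1 had -0.46 to -0.32. Fragments of class II genes can be shared between related copies, and their gene of origin is uncertain. CIITA, the activator of class II genes, had log2 ratios of 0.03 and -0.59 in the 2 groups and did not pass (adjusted p = 0.191). HLA-DRA, the gene of the alpha chain that pairs with the HLA-DRB1 product, had -0.20 (adjusted p = 0.293). With DESeq2, 3 members were lower.

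NF-kB targets gave 3 lower and 0 higher of 21 (median -0.15), against 1.56% and 1.98% of all genes, and 1 lower with DESeq2. BCL3, an IkB family gene, was at 81.7 and 54.4 CPM in the controls and at 68.8 and 51.9 CPM in the pair labelled knockdown (log2 difference -0.50, adjusted p = 0.0013), and RELB and PLEK had -0.35 and -0.41, both calls lost with DESeq2. IRF1, an interferon-regulated factor gene, was at 90.4 and 62.4 CPM and at 80.4 and 59.4 CPM (log2 difference -0.49, adjusted p = 0.0014). Of 54 interferon-stimulated genes, 2 were lower and 2 higher (median 0.06), against 1.56% and 1.98% of all genes. With DESeq2 1 was lower and 0 higher. Among 21 NRF2 oxidative stress genes, 2 were lower and 0 higher, against 1.56% and 1.98% of all genes. The 2 were the ferritin gene FTH1 (-0.50, adjusted p = 0.00186) and TALDO1 of the pentose phosphate path (-0.37, adjusted p = 0.0144).

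Cholesterol synthesis genes were higher in number 2. Of 24 tested members, 7 were higher and 0 lower, against 1.98% and 1.56% of all genes. The list median was 0.28 (0.24 and 0.25 within the groups). Higher in both groups were 21 members, where 29.7% of all genes were, and 13 members had both number 2 libraries above both number 1 libraries, where 14.4% of all genes had. HMGCS1, an early enzyme gene of the mevalonate pathway, stood at 68.8 CPM in control library 1 and 112 CPM in control library 2, with 70.0 CPM in knockdown library 1 and 120 CPM in knockdown library 2 (ENSG00000112972, chromosome 5, 43289497 to 43313614). The number 1 libraries were nearly equal and so were the number 2 libraries, with no overlap (1.67-fold higher, log2 difference 0.74, SE 0.09, adjusted p = 1.46e-05).

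Other members followed along the pathway. MSMO1, a sterol methyl oxidase gene, was at 112 and 164 CPM in the controls and at 113 and 162 CPM in the pair labelled knockdown (log2 difference 0.53, adjusted p = 0.000594). LSS, INSIG1 and MVD had 0.41, 0.36 and 0.33 (adjusted p = 0.0114, 0.028 and 0.0293). IDI1, DHCR7 and ACAT2 had 0.29, 0.28 and 0.29 with adjusted p of 0.0673, 0.0726 and 0.0644, and did not pass. SREBF2, which encodes SREBP2, had 0.12 (adjusted p = 0.604). With DESeq2, 5 members were higher. Of 15 fatty acid synthesis genes 1 was higher, against 1.98% of all genes. It was ACSS2 of acetyl-CoA synthesis (0.52, adjusted p = 0.00356). The letters TCACNCCAC of a sterol regulatory element are in 0.88% of 27305 promoters of 250 bases and in 0.87% of the 10666 whose genes were tested. They are in 1 of the 18 found for the cholesterol list, that of SREBF2, which did not pass. The promoter of ALDOC, a glycolysis gene, holds them too.

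Hypoxia response genes were higher in number 2 in part. Of 24 tested members, 8 were higher, against 1.98% of all genes, and 0 lower (median 0.21, with 0.27 in the control pair and 0.17 in the pair labelled knockdown). Higher in both groups were 14, where 29.7% of all genes were. PDK1, the kinase gene that closes pyruvate dehydrogenase, stood at 34.8 and 52.5 CPM in the controls and at 35.6 and 53.7 CPM in the pair labelled knockdown. Its 2 groups gave the same log2 ratio of 0.59 with no overlap between the numbers (adjusted p = 0.000173). P4HA1, a collagen prolyl hydroxylase gene, was at 30.9 and 51.5 CPM and at 28.5 and 39.2 CPM (log2 difference 0.60, adjusted p = 0.000347). BHLHE40, ANKRD37, P4HA2, NDRG1 and KDM3A had 0.43, 0.69, 0.52, 0.37 and 0.33. VEGFA, the angiogenic factor gene, had 0.31 (adjusted p = 0.054) and HIF1A itself 0.08. With DESeq2, 4 members were higher.

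Glycolysis genes gave 4 higher and 1 lower of 28 (median 0.15), against 1.98% and 1.56% of all genes. The aldolase gene ALDOC was at 50.0 and 75.6 CPM in the controls and at 47.7 and 78.0 CPM in the pair labelled knockdown (log2 difference 0.65, adjusted p = 6.98e-05). LDHA, the gene of lactate dehydrogenase, was at 777 and 1024 CPM and at 615 and 861 CPM (log2 difference 0.44, adjusted p = 0.00795), and both number 2 libraries were above both number 1 libraries. The glucose transporter gene SLC2A3 and PGK1 had 0.64 and 0.37 (adjusted p = 0.00324 and 0.0261), while the transporter gene SLC2A1 had 0.09 and GAPDH 0.19. TALDO1 was the lower member, and its pentose phosphate neighbours TKT and PGD had -0.20 each without passing. DESeq2 gave 3 higher and 1 lower.

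The core letters of a hypoxia response element are ACGTG. They are short and occur in 18.7% of 27305 promoters and in 23.2% of the 10666 whose genes were tested. They are in 10 of the 18 promoters found for the hypoxia list (55.6%) and 9 of the 24 for glycolysis (37.5%), beside 34.1% for the mitosis list and 31.8% for the heat shock list. P4HA1 has 1 match, on the strand opposite to the print, and LDHA has 5 counted over both strands, where CACGTG gives 1 on each (chr10:73096867-73097116, minus strand for P4HA1, and chr11:18394313-18394562, plus strand for LDHA, RefSeq GRCh38.p14).
P4HA1: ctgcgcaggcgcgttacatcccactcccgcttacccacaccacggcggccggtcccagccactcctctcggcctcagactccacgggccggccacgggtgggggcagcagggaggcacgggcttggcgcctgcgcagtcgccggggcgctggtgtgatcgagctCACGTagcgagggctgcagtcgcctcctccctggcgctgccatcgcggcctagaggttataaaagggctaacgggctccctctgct
LDHA: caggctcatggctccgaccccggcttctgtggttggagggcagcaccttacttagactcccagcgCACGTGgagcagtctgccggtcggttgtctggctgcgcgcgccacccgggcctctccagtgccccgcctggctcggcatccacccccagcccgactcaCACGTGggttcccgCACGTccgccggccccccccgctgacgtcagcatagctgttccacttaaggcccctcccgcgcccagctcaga
PDK1 and ALDOC are among the members whose values are given above, and the promoter of ALDOC holds the letters too.

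**Figure D3:**
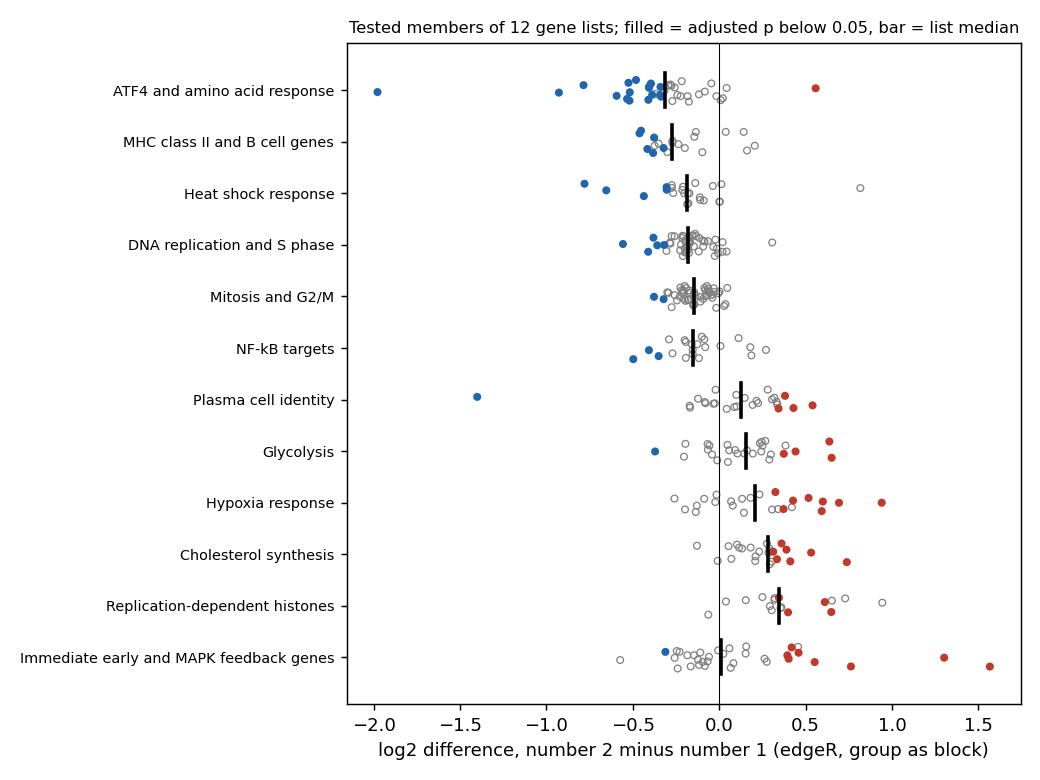
Each point is 1 tested member of a gene list, with its log2 difference, number 2 minus number 1 with the group as a block, on the horizontal axis; filled points passed the threshold (blue lower, red higher), open points did not, and the bar is the list median. The ATF4 list sits at a median of -0.32 with 17 lower members and the cholesterol list at 0.28 with 7 higher members.

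Immediate early and MAPK feedback genes split. Of 34 tested members, 8 were higher and 1 lower, against 1.98% and 1.56% of all genes, with a list median of 0.01. FOS, the AP-1 subunit gene, stood at 0.989 and 2.59 CPM in the controls and at 0.620 and 2.16 CPM in the pair labelled knockdown, on 30 to 122 fragments (2.96-fold higher, adjusted p = 0.000152). EGR1 rested on 11 and 31 fragments in the controls and on 31 and 78 in those labelled knockdown (adjusted p = 0.0133). SGK1, a serum- and hormone-induced kinase gene, was at 120 and 194 CPM and at 165 and 293 CPM (log2 difference 0.76, adjusted p = 1.46e-05). DUSP1, DUSP4, BTG2, KLF6 and JUN had 0.55, 0.46, 0.42, 0.40 and 0.39, and IER5 was lower with -0.31. JUNB, IER2, ATF3 and MYC, which respond to the same stimuli, had -0.16, -0.12, -0.08 and -0.11 and did not pass. With DESeq2, 5 members were higher and 0 lower.

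Of 60 histone genes on the list of replication-dependent histones, 28 were matched to the count files and 17 tested. They gave 4 higher and 0 lower of the 17, against 1.98% and 1.56% of all genes. The list median was 0.35, with 0.17 in the control pair and 0.50 in the pair labelled knockdown. HIST1H1C, a linker histone gene, was at 25.2 and 29.3 CPM in the controls and at 31.1 and 46.3 CPM in the pair labelled knockdown (log2 difference 0.40, adjusted p = 0.0196). HIST1H2BC, HIST1H2BJ and HIST2H2BE had 0.65, 0.61 and 0.35. The numbers overlapped for HIST1H1C, HIST1H2BC and HIST2H2BE, where control library 2 lay below knockdown library 1, but not for HIST1H2BJ. By group, HIST1H1C, HIST1H2BC and HIST2H2BE had log2 differences of 0.49, 0.65 and 0.43, labelled knockdown minus control, in the same fit. With DESeq2 none of these calls held (0 members), and fragments of histone genes can be shared between copies.

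Among plasma cell identity genes, 4 of 26 were higher and 1 was lower (median 0.12), against 1.98% and 1.56% of all genes. TXNDC5, a disulfide isomerase gene of the ER, was at 150 and 213 CPM in the controls and at 121 and 180 CPM in the pair labelled knockdown (log2 difference 0.54, adjusted p = 0.00058), and the growth factor gene HGF was at 145 and 207 CPM and at 146 and 186 CPM (log2 difference 0.43, adjusted p = 0.00584). CD28 and TNFRSF13B had 0.38 and 0.34. CD38 was the lower member, on 78 and 33 fragments in the controls and 14 and 2 in those labelled knockdown (adjusted p = 0.0265). The factor genes PRDM1, IRF4 and XBP1, which set plasma cell identity, had 0.23, 0.19 and 0.15 and did not pass.

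**Figure D4:**
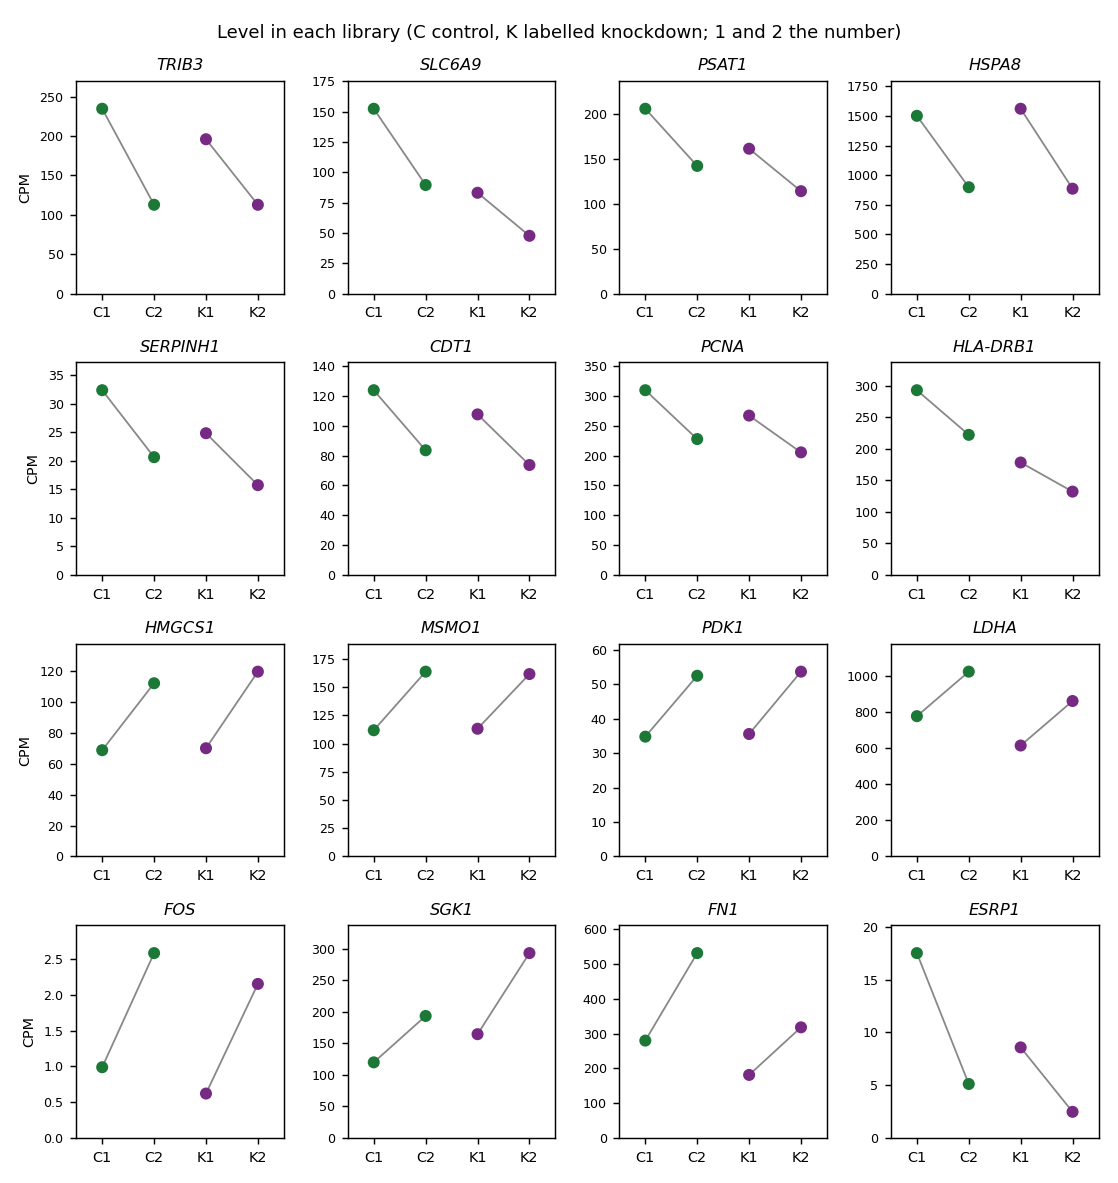
Level in CPM on TMM-scaled libraries (vertical axes, each from 0) of 16 genes in control (C, green) and labelled knockdown (K, purple) libraries numbered 1 and 2; each point is 1 library and a line joins the libraries of a group. HSPA8 is at 1501 and 898 and at 1561 and 885 CPM in libraries 1 and 2 of the groups, and HMGCS1 at 68.8 and 112 and at 70.0 and 120 CPM.

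The 12 highest and 12 lowest genes taken by the naming rule include members of the lists above (TRIB3, HSPA8 and SGK1) and genes outside them. ESRP1, a splicing regulator gene of epithelial cells, had the largest difference among the lower genes named by rule, at 17.5 and 5.11 CPM in the controls and at 8.58 and 2.47 CPM in the pair labelled knockdown. Number 2 was lower without overlap, with log2 ratios of -1.77 and -1.78 in the 2 groups (3.45-fold lower, log2 difference -1.79, SE 0.13, adjusted p = 8.99e-09). CLDN1, a tight junction gene, was at 5.66 and 2.42 CPM and at 8.02 and 4.68 CPM (log2 difference -0.98), and the repressor gene HIC1 was at 12.3 and 5.77 CPM and at 11.4 and 6.67 CPM (-0.93). THAP10, NXPH4, TNFRSF18, CDC42EP4, NOTUM and CCPG1 had -0.91 to -0.67 and complete the 12 lowest with TRIB3, HSPA8 and EIF4EBP1. EPCAM, another epithelial gene, was at 59.2 and 45.6 CPM in the controls and at 31.8 and 29.3 CPM in the pair labelled knockdown. The epithelial markers CDH1 and KRT18 went the other way, higher in number 2 within each group. Of the 6 tested members of the epithelial and kidney line list, 4 were higher and 2 lower in both groups (median 0.16).

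Of the 12 highest, MORC1, a germ cell gene, stood at 3.01 and 8.25 CPM in the controls and at 2.77 and 6.49 CPM in the pair labelled knockdown (2.54-fold higher, adjusted p = 1.2e-05). FN1, which encodes the matrix protein fibronectin, was at 280 and 532 CPM and at 181 and 318 CPM (1.83-fold higher, adjusted p = 3.75e-06). RND3, a gene of an atypical small GTPase, was at 16.4 and 33.1 CPM and at 23 and 43.8 CPM (1.95-fold higher, adjusted p = 1.12e-06). The estrogen receptor gene ESR1, at 13.5 and 23.5 CPM and at 13.1 and 22.2 CPM, and MCAM, an adhesion gene at 13.0 and 21.7 CPM and at 12.6 and 21.2 CPM, had nearly the same ratio in each group. PPFIA4, KIF3C, GREB1L, CGN, BHLHE22 and TBX3 had 0.74 to 0.87, and SGK1 completes the 12. Only 3 genes passed a test against a minimum of 1.5-fold, 2 higher and 1 lower, among them MORC1 and ESRP1.

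Lists for ribosomal, respiratory, splicing, proteasome, autophagy and secretory genes gave at most 1 call each. Lysosome genes gave 2 lower and 0 higher of 38, against 1.56% and 1.98% of all genes. These were CTSD and CTSZ, and both calls were lost with DESeq2. Cytosolic ribosomal protein genes gave 0 calls among 78, with a median of -0.07 in the control pair and 0.14 in the pair labelled knockdown, and 65 of the 78 had opposite signs. Nuclear-encoded oxidative phosphorylation genes gave 0 calls among 75, with -0.12 and 0.09 and 55 opposite signs. Mitochondrial genome transcripts gave 1 higher of 15, the ribosomal RNA gene MT-RNR1, against 1.98% of all genes. Their medians were -0.12 and 0.18, with 10 opposite signs. Knockdown library 2 also had the largest mitochondrial share of fragments, 6.81%, and with those transcripts left out 352 genes were higher and 262 lower in number 2. Whether the number difference differs between the groups has no test, since the fit leaves that difference as its residual. Splicing factors (46 tested), proteasome subunits (31), autophagy genes (29), Golgi and secretory traffic (37) and small nucleolar RNA host genes (17) gave 0 calls. Without a call, 21 of the 31 proteasome genes were lower in number 2 in both groups, where 30.0% of all genes were, with medians of -0.13 in the control pair and -0.03 in the pair labelled knockdown. Lower in both groups were also 17 of the 37 Golgi and secretory genes and 13 of the 29 autophagy genes.

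**Figure D5:**
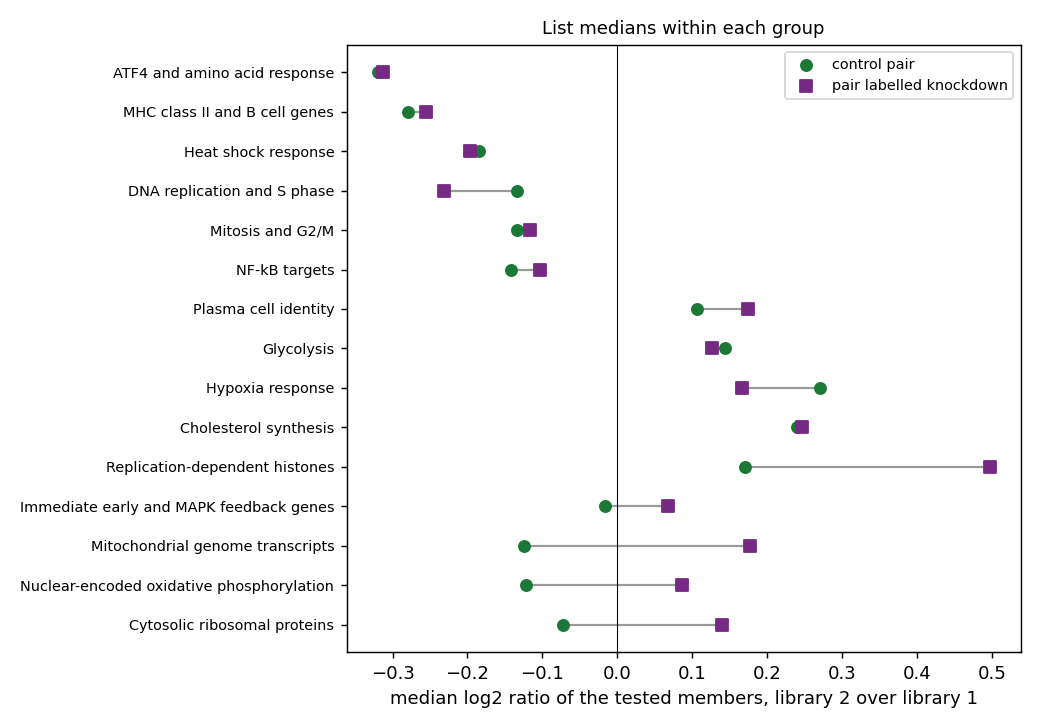
Median log2 ratio of the tested members of 15 gene lists, library 2 over library 1, in the control pair (green circle) and in the pair labelled knockdown (purple square). The ATF4 list stands at -0.32 and -0.31, while ribosomal proteins stand at -0.07 and 0.14.

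Across 16533 genes the number difference correlated with GC content at r = -0.05, a description across genes. The length relation had opposite signs in the groups, with a rank correlation of 0.168 for the control ratio and -0.082 for the ratio in the pair labelled knockdown (17172 genes). Higher calls went from 1.19% in the shortest of 5 bins of exonic length to 3.55% in the longest, against 1.98% of all genes. Lower calls were 0.907% in the lowest of 5 bins of GC content and 2.66% in the highest, against 1.56% of all genes.

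Counting did not use strand, so where genes overlap the gene of origin is uncertain. Among the genes named here with values this holds for HLA-DPA1 and HLA-DPB1, which overlap each other, and for L1CAM, ACAT2, CIITA, DDIT3, DHCR7, HSPA1A, JUNB, MCM2, MCM7, SLC7A11, SREBF2, HSPA8, SLC6A9, SHMT2, MTHFD2, ALDH1L2, PYCR1, ASNS, SLC1A5, WARS, DNAJB1, AHSA1, FTH1, DUT, DTL, FOXM1, CDCA3, CCPG1, THAP10, PDK1, ANKRD37, ALDOC, LDHA, SLC2A3, BHLHE40, ACSS2, LSS, TXNDC5, TNFRSF13B, SGK1, ESR1, BHLHE22, PTP4A3, CCND1 and SMARCA2.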

How the data were processed

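Deposited fragment counts per Ensembl gene were used as they stand. Per the submitters' processing notes, reads went through Trim Galore 0.3.7, STAR 2.5.3, featureCounts of Subread 1.4.6, Picard and DESeq2, with GRCh37 as the build. Symbols, coordinates and gene lengths came from the authors' deposited table, whose 4 count columns were not used. Each library had 62069 genes, and 1 blank line per file was left out.

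The main test was edgeR 4.0.16 in R 4.3.3 (TMM scaling, default filter, terms for group and number, Benjamini-Hochberg adjustment). CPM, log2 ratios (prior count 2) and 95% intervals were computed from that fit. GENCODE 29 gave gene types and GC content. Intervals cover the spread of this model only.

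The comparison, the 42 gene lists and the alternatives were chosen with earlier results of these data known. The named genes were the 12 highest and 12 lowest protein-coding genes of at least 5 CPM past the threshold without overlap of the numbers, up to 3 members per list and direction by smallest adjusted p, and 5 study genes. Every other gene named was chosen after its values were seen. Of 1284 list entries 1225 were matched. Some genes of the lists count in the totals but are not reported here by name.

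On simulated counts with 16791 genes tested, 32.7%, 69.0% and 76.8% of 1.3-, 1.5- and 2-fold changes were recovered, with 8 false among 127 calls. These counts were drawn from the fitted means and spread of the same model. They hold no difference of the number effect between the groups, so they cannot give the rate of false calls in these data. Figures were drawn with matplotlib 3.10.9.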

Additional observations from a re-analysis of the deposited data

Results flagged for a closer look

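Some values moved one way with the number in the control pair and the other way in the pair labelled knockdown. With 1 library on each side the difference between the groups was not tested. The log2 ratio of the pair labelled knockdown minus that of the control pair was -0.51 for CCND1, -0.17 for SMARCA2 and -0.0195 for FGFR3. Between list medians it was 0.0837 for immediate early and MAPK feedback genes, 0.21 for cytosolic ribosomal proteins, 0.21 for nuclear-encoded oxidative phosphorylation and 0.30 for mitochondrial genome transcripts.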

How the results depend on the processing

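Calls by number depended on the model. The 340 higher genes became 225 with library-size scaling, 545 with a filter of 1 CPM, 86 with DESeq2, 673 with GC content and length terms, 2 against a minimum of 1.5-fold and 0 without the group block. The 268 lower genes became 80 with DESeq2, 598 with GC content and length terms, 1 against a minimum of 1.5-fold and 0 without the group block. Fits that left out 1 library could not keep the block, so the groups were unbalanced between the numbers there. They gave 0 to 30 higher and 0 to 6 lower genes. The other alternatives for these counts stayed within 1.5 times. In the same fit with the number as a replicate block, 3319 genes differed between the libraries labelled knockdown and control. This became 1018 with no replicate block, 1237 with DESeq2, 493 against a minimum of 1.5-fold and 822 to 2024 with 1 library left out. The labels do not say that the numbers pair the libraries, and 2 pairs are too few to tell.

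Of 83 named genes past the threshold, 54 kept their call under each of 10 alternatives of scaling, filter, tool and covariates that kept the block and set no minimum fold, wherever the gene was tested. The other 29 lost it in at least 1, and 26 of these with DESeq2. With 1 library left out, the OASL log2 difference ran from -0.332 to 1.925, the L1CAM log2 difference from -0.022 to 0.704, with -0.004 without control library 1, and the CD38 log2 difference from -4.555 to 0.313. The fits with 1 library left out had no group term, so a group difference enters their number difference. In the main fit the log2 difference between the libraries labelled knockdown and the controls was -1.74 for OASL, 0.65 for L1CAM and -2.83 for CD38. How much else moved these values was not tested.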
